A study of Mus musculus with 84 samples.

Results

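The livers of 7 male B6C3F1 mice fed parathion (PT) at 80 ppm in the diet for 7 days were compared with those of 7 male B6C3F1 mice fed the same AIN-93G diet without an organophosphate pesticide (OPP). These 14 mice, labelled PT80ppm and Con0ppm, were taken by their treatment labels from a study of 84 mice in 12 groups, and all were 8 weeks old. Parathion is an insecticide whose oxidised form inhibits acetylcholinesterase. RNA was taken from frozen pieces of liver lobes and measured with TempO-Seq, in which pairs of detector oligos are ligated on their target transcript, amplified and sequenced. Each group held 2 mice of experimental block 1, 3 mice of block 3 and 2 mice of block 4. RNA came from the isolator labelled EA (Expression Analysis Genomic Services) for every PT 80 ppm mouse and 5 control mice, and from EPA for 2 control mice, 1 in block 3 and 1 in block 4. Mice were housed in groups and whole cages were assigned to treatments, but the cage of a mouse was not used here. The p-values therefore measure the spread between single mice, pooled over all 12 groups of the 84 mice. Mice of a group may have shared a cage. Total counts ranged from 9273235 to 13326762 per mouse. A level was taken as measured from 3 counts upwards, which is 0.225 to 0.324 CPM (counts scaled to a common library size) at these depths. The lowest PT 80 ppm values given below for Top2a, Cdkn1a and Sult1e1 lie under this floor. Hepatocyte markers were present in every mouse, with a summed level of 55654 to 69899 CPM in the control mice and 49554 to 68769 CPM at PT 80 ppm, and 0 of 13 passed both limits given below (4 higher and 1 lower by adjusted p alone in the edgeR test). No 2 mice of a group were so alike that they could be the same library.

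The liver clears foreign chemicals with cytochromes P450, conjugating enzymes and transporters, many of which are controlled by the nuclear receptor CAR, the product of Nr1i3. It also makes the acute phase and complement proteins of the blood, makes and burns fat, and in rodents expresses many genes at different levels in males and females under the control of pulsatile growth hormone. Fasting, glucocorticoids and the circadian clock each change sets of liver genes, among them those of amino acid breakdown and fat synthesis.

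Of 10415 genes with a median count above 8 over all mice, 344 differed between PT 80 ppm and control by at least 2-fold with an adjusted p under 0.05 (edgeR quasi-likelihood test, Benjamini-Hochberg adjustment), or 3.3% of the genes tested. These differentially expressed genes (DEGs) comprised 170 genes that rose (1.63%) and 174 that fell (1.67%). With no limit on the fold change, 1941 genes passed (18.6%), of which 1015 were higher (9.75%) and 926 lower (8.89%), and the median log2 fold change over all genes tested was 0.0055. Most changes were moderate. Of the genes that rose, 137 changed by 2 to under 4-fold, 24 by 4 to under 8-fold and 9 by 8-fold or more, and the genes that fell were divided into 139, 27 and 8. Well-counted genes, with a mean of at least 50 CPM over the 14 mice, made up 88 of the DEGs (45 higher, 43 lower), or 3.57% of the 2465 well-counted genes tested, and 167 DEGs had a median count of at most 50 over all mice. The CPM of the 2 groups did not overlap for 64 DEGs (26 higher, 38 lower), against 1.29% of all genes tested (0.509% higher and 0.778% lower). Among the well-counted DEGs this held for 16, of which 11 were higher and 5 lower. When counts were scaled by their total alone, the number of DEGs was again 344, but 62.8% of them were higher instead of 49.4%, and the median of all genes moved by 0.12 on the log2 scale.

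The PT 80 ppm mice did not respond to the same extent, and both mice of block 1 moved furthest. Over the 170 higher genes, the median difference of a mouse from the mean of the control mice, in log2(CPM + 0.5), was 2.41 and 1.71 in the 2 mice of block 1, between 0.59 and 1.11 in the 3 mice of block 3, and 0.50 and 0.73 in the 2 mice of block 4. Over the 174 lower genes it was -1.85 and -1.72 in block 1, between -1.22 and -0.67 in block 3, and -0.79 and -0.90 in block 4. These medians describe genes chosen by the same values, and control mice lay between -0.17 and 0.08 over the higher genes and between -0.30 and 0.19 over the lower genes. Within blocks, 164 of the 170 higher genes were higher in the PT 80 ppm mice of block 1 than in its control mice, 150 in block 3 and 129 in block 4, and 171, 174 and 158 of the 174 lower genes were lower. The spread among mice differed between the groups as well. The SD of log2 CPM was larger at PT 80 ppm than in the control mice for 149 of the 170 higher genes. For the lower genes this held for 117 of 174, close to the 62.7% of all genes tested. The median SD of the higher genes was 0.94 at PT 80 ppm and 0.49 in the control mice. That of the lower genes was 0.67 and 0.45, and that of all genes tested 0.34 and 0.29.

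**Figure D1:**
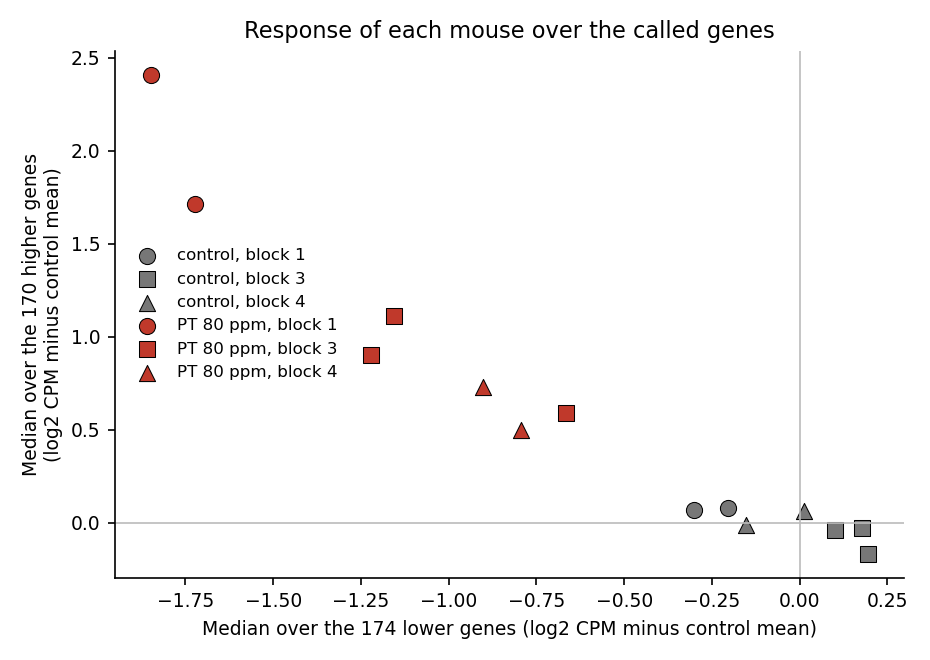
Each point is a mouse; the x axis gives its median difference from the mean of the control mice over the 174 lower genes and the y axis that over the 170 higher genes, both in log2(CPM + 0.5), with control mice grey, PT 80 ppm mice red and the block shown by the symbol. Control mice cluster near 0, and the 2 PT 80 ppm mice of block 1, at -1.85 and 2.41 and at -1.72 and 1.71, lie beyond the other 5.

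The comparison was therefore repeated without the mice of block 1, a choice made after the data were seen. Then 173 genes were DEGs (88 higher, 85 lower), and 141 of them were among the 344. This fit left out block 1 in every group of the study, so that 5 PT 80 ppm and 5 control mice remained. With fewer mice a gene can miss the limit on adjusted p although its fold change is not smaller. Of the 88 well-counted DEGs, 41 were also called then. Leaving out only the PT 80 ppm mouse with the largest response, replicate 1, gave 243 DEGs (108 higher, 135 lower). The response itself was also compared between block 1 and blocks 3 and 4, a test added after the data were seen. The difference had an adjusted p under 0.05 for 1287 of 10415 genes in this edgeR fit. The DEGs were called with block 1 included, so the differences given below for single DEGs are descriptions and no p is given for them. Sult1e1, the oestrogen sulfotransferase, had 3052 and 38.7 CPM in the PT 80 ppm mice of block 1, against 1.01 to 6.54 CPM (median 2.25) in the control mice. In the other 5 PT 80 ppm mice it lay between 0.218 and 8.00 CPM. Its log2 fold change of 6.95 (SE 1.01, adjusted p = 3.62e-07) became 0.07 (adjusted p = 0.963) without block 1. For Igfbp1, a secreted binding protein of insulin-like growth factors, replicate 1 had 721 CPM and the other 6 mice had between 7.77 and 34.6 CPM, and the log2 fold change of 3.00 (SE 0.69, adjusted p = 8.96e-04) became 0.18 (adjusted p = 0.911) without block 1. Each list with a DEG is given with and without block 1, and the counts without it can include genes that were not DEGs with all mice. With all mice 1.63% of all genes tested were called higher and 1.67% lower, and by adjusted p alone 9.75% and 8.89%. The lists were chosen with earlier results of these data known, so their counts describe the members.

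**Figure D2:**
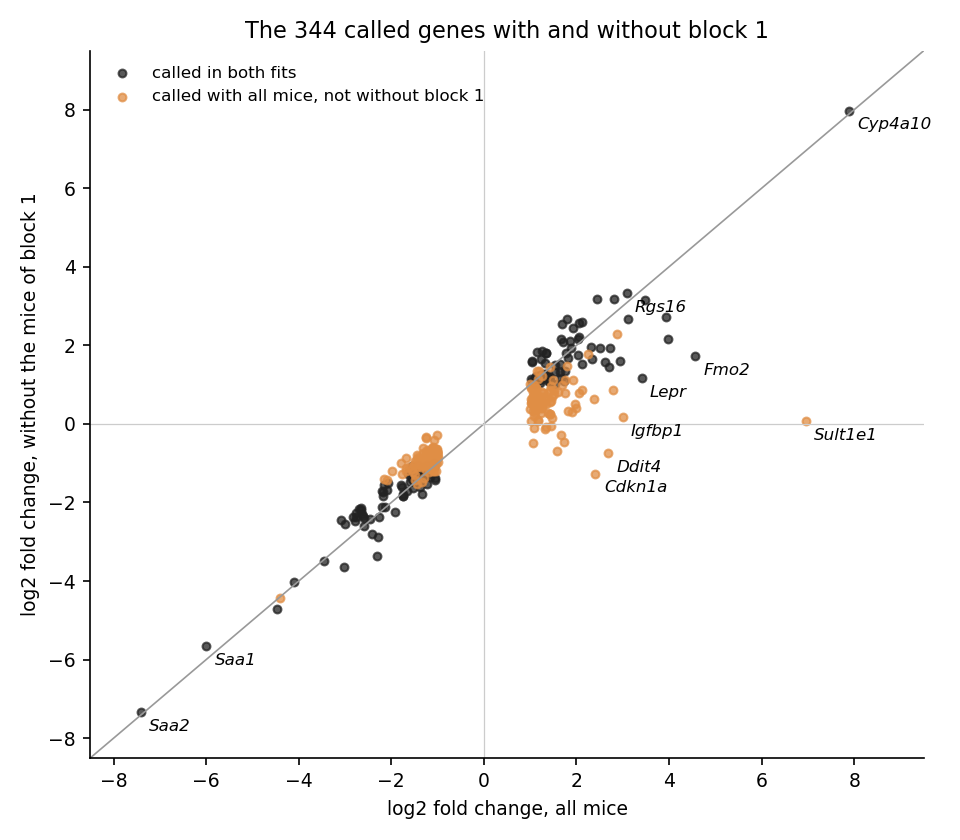
Each point is a DEG; the x axis gives its log2 fold change at PT 80 ppm against control with all mice and the y axis that without the mice of block 1, black where the gene was also a DEG there (141 genes) and orange where it was not. Saa1, Saa2 and Cyp4a10 lie near the line of equal change, whereas Sult1e1 and Igfbp1 lie near 0 and Ddit4 and Cdkn1a below 0 on the y axis.

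Nr1i3 and many cytochromes P450 rose. Nr1i3, which encodes CAR, had 141 to 325 CPM (median 174) in the control mice and 489.8 to 1013 CPM (median 608) at PT 80 ppm, with no overlap, and its log2 fold change was 1.78 (SE 0.24, adjusted p = 5.14e-08). Nr1i3, Cyp3a11 and the other genes of which the methods say so were named after their values were seen. Of 54 cytochrome P450 genes and regulators tested, 17 rose, 6 fell and 31 were not called, and the median log2 fold change was 0.32, against 0.0055 over all genes. Without block 1, 11 rose, of which Cyp2c40 and Cyp2e1 were not DEGs with all mice, and 1 fell. No Cyp2b gene was among the DEGs with all mice. Whether the changes of the P450 genes depended on Nr1i3 was not tested. Cyp2c54, a drug and fatty acid hydroxylase, had 164 to 309 CPM (median 236) in the control mice and 385 to 1296 CPM (median 958) at PT 80 ppm. All 7 mice lay above all control mice, although the lowest of them was the mouse of block 1 with the largest response over all DEGs. The log2 fold change of Cyp2c54 was 2.03 (SE 0.22, adjusted p = 1.87e-10). The related Cyp2c37 and Cyp2c39 rose by 2.32 and 3.48 on the log2 scale, also with no overlap. Cyp3a11, the main mouse CYP3A, rose from a median of 41.3 to 103 CPM, by 1.12 (SE 0.25, adjusted p = 5.58e-04), but by 0.91 (adjusted p = 0.04) without block 1, under the 2-fold limit. It was also under that limit without PT 80 ppm replicate 7 (0.99) or control replicate 1 (0.96). Por, which passes electrons to all microsomal P450s, had 21.6 to 77.3 CPM (median 32.6) in the control mice and 47.6 to 848 CPM (median 152) at PT 80 ppm, and its log2 fold change was 2.33 (SE 0.32, adjusted p = 1.16e-07). In contrast, Cyp2d40 had 23.2 to 46.6 CPM (median 29.8) in the control mice and 3.10 to 20.1 CPM (median 11.2) at PT 80 ppm, and fell with no overlap by 1.59 on the log2 scale. Reads of the Cyp2c and Cyp3a families can be split between near-identical members by the counting, which limits the values of single genes.

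Conjugating enzymes and transporters changed as well. Of 48 flavin monooxygenases, transferases and related enzymes, 12 rose, 3 fell and 33 were not called (median 0.04), and without block 1 the numbers were 5 and 1. Ugt1a1, which glucuronidates bilirubin and many drugs, had 746 to 1734 CPM (median 884) in the control mice and 1591 to 3157 CPM (median 2255) at PT 80 ppm. Its change of 1.11 (SE 0.11, adjusted p = 1.29e-12) had the smallest SD of log2 CPM among PT 80 ppm mice of all genes that rose, and 6 of 7 mice lay above all control mice. Ugt1a1 and Ugt1a9 share their last exons, so their reads cannot be fully told apart. Sult1a1, a phenol sulfotransferase, had 419 to 556 CPM (median 479.9) in the control mice and 749 to 2582 CPM (median 1329) at PT 80 ppm, and the groups did not overlap. Sult1d1 rose by 2.06 (SE 0.27, adjusted p = 4.66e-08) with all mice, but by 0.78 (adjusted p = 0.00921) without block 1, under the 2-fold limit. Fmo2 had 0.588 to 1.23 CPM (median 0.921) in the control mice and 1.24 to 183 CPM (median 4.00) at PT 80 ppm. The 2 mice of block 1 had 183 and 46.5 CPM and the other 5 between 1.24 and 5.48 CPM, but all 7 lay above the control mice. Among 32 genes of bile acid synthesis and transport, 4 rose and 0 fell (median 0.19; 3 without block 1). Slco1a4, a sinusoidal uptake transporter, had 4.46 to 17.6 CPM (median 6.75) in the control mice and 21.9 to 246 CPM (median 65.7) at PT 80 ppm, a log2 fold change of 3.12 (SE 0.30, adjusted p = 1.70e-12). The efflux pumps Abcc3 and Abcb1a rose by 1.87 and 1.21 on the log2 scale with no overlap, and Abcb1a was at 0.896, under the 2-fold limit, without PT 80 ppm replicate 5. Cyp7a1, the rate-limiting enzyme of bile acid synthesis, rose by 2.24 (SE 0.54, adjusted p = 0.00142), and its log2 fold change was 1.79 (adjusted p = 0.0743) without block 1.

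**Figure D3:**
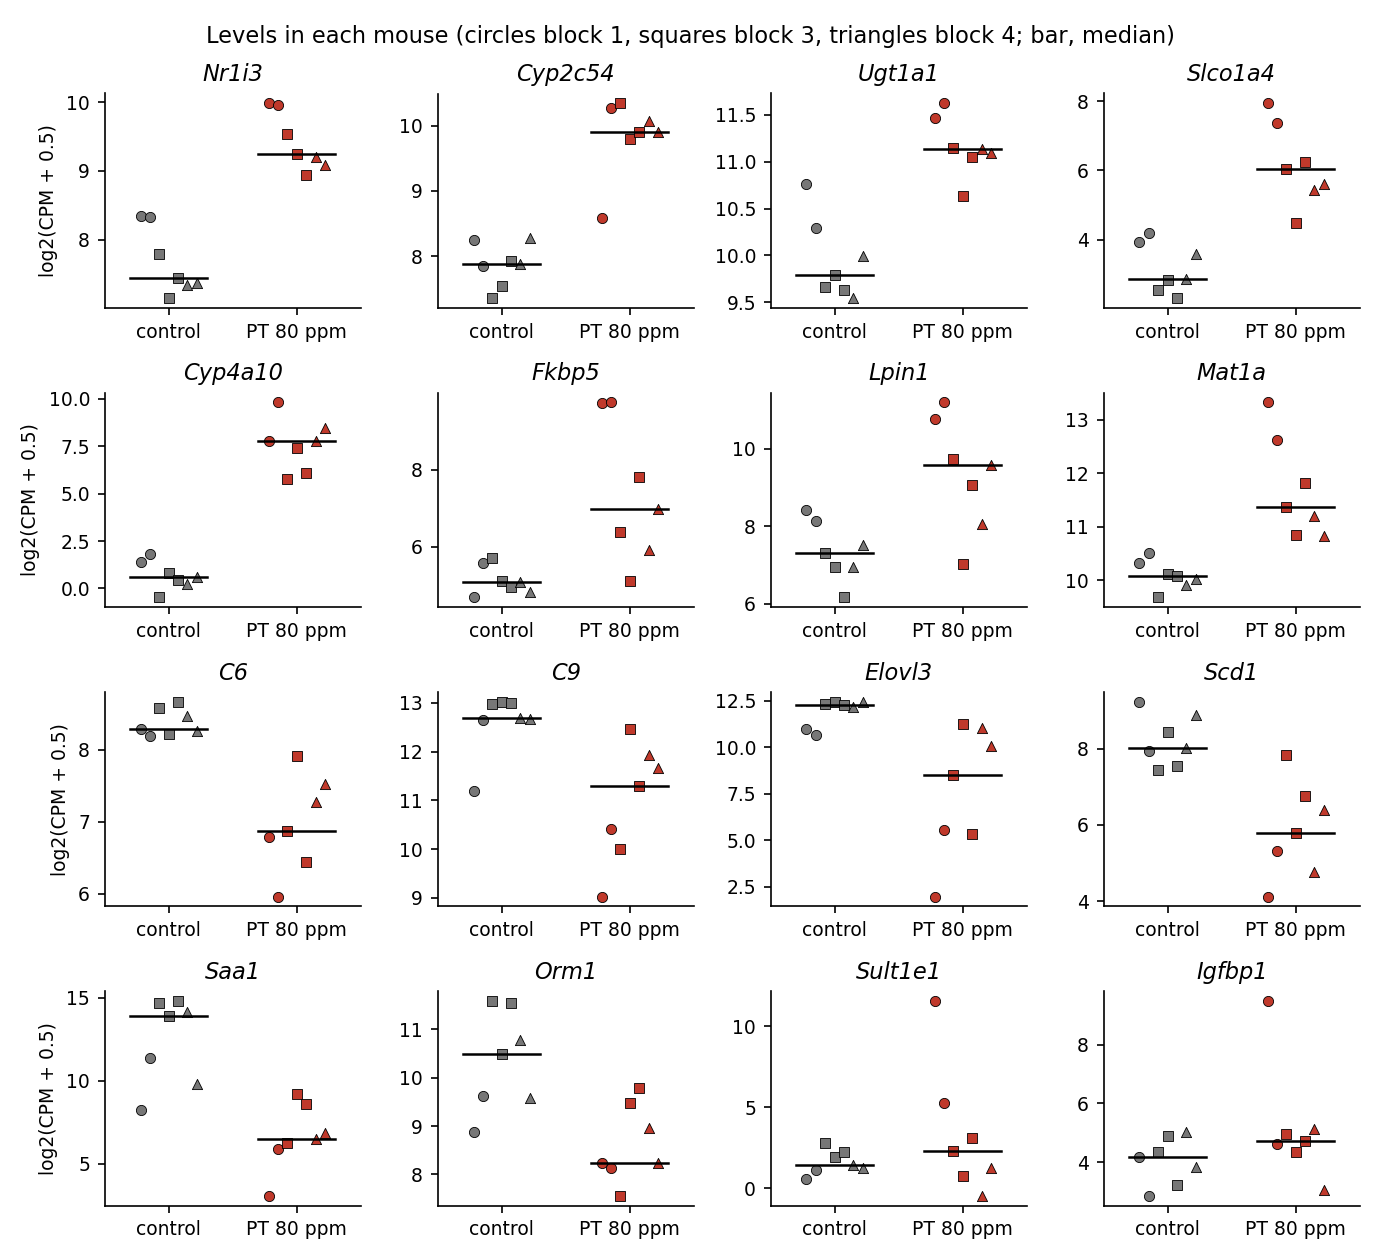
Each panel gives 1 gene and each point 1 mouse, with log2(CPM + 0.5) on the y axis, control mice grey on the left, PT 80 ppm mice red on the right, the block shown by the symbol and the median by a bar. The groups are apart for Nr1i3, Cyp2c54, Slco1a4, Cyp4a10, Mat1a and C6, whereas 1 mouse of block 1 stands far above all others for Sult1e1 and Igfbp1; the scales differ between panels.

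Cyp4a10, a fatty acid omega-hydroxylase and target of PPARA, was the gene with the largest increase. It had 0.221 to 2.99 CPM (median 1.01) in the control mice and 53.3 to 890.1 CPM (median 216) at PT 80 ppm, and its log2 fold change of 7.89 (SE 0.74, adjusted p = 1.29e-12) was 7.97 (adjusted p = 4.55e-08) without block 1. Reads may be split between Cyp4a10 and its close relatives Cyp4a31 and Cyp4a32. Of 44 fatty acid oxidation genes and PPARA targets tested, Cyp4a10 included, 5 rose, 1 fell and 38 were not called (median 0.17), against 1.63% higher and 1.67% lower of all genes tested, and 2 rose without block 1. Acot1, a thioesterase that splits acyl-CoA, rose from a median of 1.84 to 11.01 CPM, with 1.4995 and 6.76 CPM as the lowest and highest control mouse and 2.25 and 19.9 CPM at PT 80 ppm, a log2 fold change of 2.06 (SE 0.37, adjusted p = 3.01e-05). Plin4 and Ppargc1a rose by 2.79 and 1.10 on the log2 scale but were not called without block 1. Plin2, which coats lipid droplets, had 789 to 1356 CPM (median 973) in the control mice and 81.5 to 928 CPM (median 449) at PT 80 ppm, a log2 fold change of -1.10 (SE 0.24, adjusted p = 6.09e-04) that became -0.58 (adjusted p = 0.116) without block 1. Plin2 was also under the 2-fold limit without PT 80 ppm replicate 1 (-0.893), PT 80 ppm replicate 2 (-0.94) or control replicate 1 (-0.97).

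Some genes of fat synthesis fell. Of 33 genes of lipogenesis and glycolysis tested, 5 fell, 2 rose and 26 were not called (median -0.57), and without block 1 the numbers were the same, with Insig2 called lower in place of Elovl5. Scd1, the stearoyl-CoA desaturase of the liver, had 172 to 598 CPM (median 257) in the control mice and 16.9 to 225 CPM (median 55.1) at PT 80 ppm, and 6 of 7 mice lay below all control mice. Its log2 fold change was -2.18 (SE 0.37, adjusted p = 1.23e-05), or -1.73 (adjusted p = 0.00526) without block 1. Pnpla3, a triglyceride hydrolase, and Elovl5, which elongates polyunsaturated fatty acids, fell with no overlap, by 2.47 and 1.13 on the log2 scale. Acacb, an acetyl-CoA carboxylase, fell by 1.45. The 2 genes that rose were Lpin1 and Pfkfb3. Lpin1, a phosphatidate phosphatase and coregulator, had 71.4 to 345 CPM (median 158) in the control mice and 131 to 2344 CPM (median 764) at PT 80 ppm, with 5 of 7 mice above all control mice and a log2 fold change of 2.03 (SE 0.47, adjusted p = 9.34e-04). Pfkfb3, a regulator of glycolysis, rose by 1.65 (SE 0.38, adjusted p = 0.00102).

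Of 26 genes of cholesterol synthesis and uptake tested, 6 fell (Hmgcs1, Sqle, Pmvk, Cyp51, Dhcr7 and Nsdhl, enzymes along the path), 20 were not called and 0 rose. With no fold limit 14 fell and 0 rose, against 8.89% lower and 9.75% higher of all genes tested. The median log2 fold change was -0.71. Without block 1 only Dhcr7 was called, and the median was -0.29. Dhcr7, the last enzyme of one branch, had 26.3 to 55.8 CPM (median 39.2) in the control mice and 6.60 to 31.04 CPM (median 16.6) at PT 80 ppm, a log2 fold change of -1.33 (SE 0.20, adjusted p = 1.02e-06). Pmvk had 63.98 to 132 CPM (median 98.6) in the control mice and 14.9 to 109 CPM (median 39.9) at PT 80 ppm, and fell by 1.14. Hmgcs1, which makes HMG-CoA, had 233 to 500.1 CPM (median 360.2) in the control mice and 27.9 to 433 CPM (median 205) at PT 80 ppm. The Hmgcs1 log2 fold change of -1.01 (SE 0.32, adjusted p = 0.0184) became -0.28 (adjusted p = 0.691) without block 1. Hmgcs1 was also under the 2-fold limit without PT 80 ppm replicate 1, 2 or 5 or control replicate 1, 2 or 3, at -0.785 to -0.947. The response of Cyp51 in block 1 differed from that in blocks 3 and 4 by -2.34 (SE 0.42) on the log2 scale, a larger decrease in block 1. These genes are known targets of SREBP2, which binds sterol regulatory elements. Promoters were searched for this and other motifs, in this and other lists, as given with the clock genes below. Promoters of 5 of the 6 genes were found in RefSeq (build GRCm38.p6, another build than that of the counts). The letters TCACNCCAC, searched exactly on both strands between 250 bases before and 50 bases after the start, occurred in that of Hmgcs1, and in 1.44% of the 27025 genes with a promoter. Its 250 bases before the start (chr13:119690101-119690350, + strand) are shown because the gene belongs to the group that fell, with the match in capitals.
Hmgcs1: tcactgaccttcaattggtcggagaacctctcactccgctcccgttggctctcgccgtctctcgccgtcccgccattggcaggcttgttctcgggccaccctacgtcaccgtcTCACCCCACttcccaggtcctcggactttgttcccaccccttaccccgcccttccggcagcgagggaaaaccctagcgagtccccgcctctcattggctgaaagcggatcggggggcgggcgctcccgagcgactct

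Acute phase genes fell from levels that differed widely among the control mice. Most genes of this list encode proteins that hepatocytes secrete in inflammation. Of 32 tested, 10 fell, 1 rose and 21 were not called (median -0.50), and 7 fell without block 1. Saa1 had 304 to 28833 CPM (median 15215) in the control mice and 7.91 to 599 CPM (median 89.1) at PT 80 ppm. The 3 control mice of block 3 and replicate 6 of block 4 held between 15215 and 28833 CPM, while both control mice of block 1 and replicate 7 of block 4 held between 304 and 2676 CPM. Even so, 5 of 7 PT 80 ppm mice lay below all control mice, and the log2 fold change was -5.99 (SE 1.36, adjusted p = 8.00e-04). Saa2 showed the same mice high and low, and reads of the 2 genes can be split between them. Saa3 fell by 4.41 and Orm2 by 4.48 on the log2 scale. Saa3 had -4.43 (adjusted p = 0.0502) without block 1, and Orm2 had -3.44 (adjusted p = 0.0703) without control replicate 5. Among well-counted genes with less extreme changes, Orm1, an alpha-1-acid glycoprotein, had 467 to 3075 CPM (median 1443) in the control mice and 188 to 888 CPM (median 301) at PT 80 ppm, a log2 fold change of -1.74 (SE 0.40, adjusted p = 9.96e-04). Hpx, which binds free haem, had 1582 to 5582 CPM (median 4079.7) in the control mice and 1139 to 3032 CPM (median 1411) at PT 80 ppm and fell by 1.07. Without block 1 its log2 fold change was -1.21 (adjusted p = 0.0799), and it was under the 2-fold limit without PT 80 ppm replicate 3 or 7 or control replicate 3 or 5, at -0.94 to -0.997. A2m, a protease inhibitor, fell by 2.99. The gene that rose, Cebpd, encodes a transcription factor and not a plasma protein, and its log2 fold change of 1.34 (SE 0.36, adjusted p = 0.00542) became -0.09 (adjusted p = 0.927) without block 1. Of 33 interferon-stimulated genes, 2 fell and 0 rose, with a median of -0.51. With no fold limit 15 fell and 0 rose, against 8.89% lower and 9.75% higher of all genes tested. Without block 1, 0 were called and the median was -0.24. Psmb9, an immunoproteasome subunit, fell by 1.02, or by 0.73 without block 1.

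Of 41 complement and coagulation genes tested, 3 fell, 0 rose and 38 were not called (median -0.13), and without block 1 C6, C9 and Prg4 were called lower. With all mice the 3 genes were C6, C8a and C9, parts of the membrane attack complex. C6 had 293 to 407 CPM (median 314) in the control mice and 61.7 to 241 CPM (median 117) at PT 80 ppm with no overlap, and its log2 fold change was -1.32 (SE 0.17, adjusted p = 3.72e-08). C9 had 2333 to 8319 CPM (median 6581) in the control mice and 519.7 to 5669.9 CPM (median 2509.9) at PT 80 ppm, and only 3 of 7 mice lay below all control mice. Its log2 fold change was -1.505 (SE 0.25, adjusted p = 6.98e-06). C8a had 387 to 669 CPM (median 568) in the control mice and 21.1 to 450.5 CPM (median 241) at PT 80 ppm, and the change of -1.03 (SE 0.24, adjusted p = 9.78e-04) became -0.66 (adjusted p = 0.0219) without block 1. C8a was also not a DEG when PT 80 ppm replicate 1, 2 or 3 or control replicate 2 or 5 was left out. C6 and C9 are also male-biased in mouse liver.

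Genes with a sex bias in mouse liver made up many of the DEGs. Of 29 male-biased genes tested, 18 fell and 0 rose, with a median log2 fold change of -1.22. Of 23 female-biased genes tested, out of 40 in the count table, 15 rose and 1 fell, with a median of 1.22. Over all genes tested 1.63% rose and 1.67% fell. Both lists were chosen with earlier results of these data known, so their counts are descriptions. Without block 1 the numbers were 7 lower of the male-biased genes, and 8 higher and 1 lower of the female-biased genes, with medians of -0.78 and 0.64. The lists overlap with those of the P450s, conjugating enzymes and complement. Elovl3, a fatty acid elongase, had 1640.0 to 5591 CPM (median 4929) in the control mice and 3.42 to 2463 CPM (median 363) at PT 80 ppm. Both PT 80 ppm mice of block 1 and replicate 5 of block 3 had between 3.42 and 47.1 CPM and the other 4 mice between 363 and 2463 CPM. The log2 fold change was -2.70 (SE 0.47, adjusted p = 1.27e-05) with the spread pooled over all groups. By edgeR on the control and PT 80 ppm mice alone it was -3.53 (adjusted p = 0.095). Moxd1 had 6.76 to 237 CPM (median 181) in the control mice and 0.327 to 66.4 CPM (median 2.97) at PT 80 ppm and fell by 3.46. Mup17, a major urinary protein whose reads may be shared with its many copies, had 218 to 2817 CPM (median 402) in the control mice and 35.9 to 509.7 CPM (median 161) at PT 80 ppm and fell by 2.19. Cyp2u1 fell by 1.26, or by 0.93 without block 1. Among the female-biased genes, Tox, a nuclear protein, had 1.67 to 4.14 CPM (median 3.18) in the control mice and 4.03 to 61.9 CPM (median 9.09) at PT 80 ppm, with a log2 fold change of 2.61 (SE 0.32, adjusted p = 6.17e-09). Cyp39a1, an oxysterol hydroxylase, had 0.767 to 2.12 CPM (median 1.42) in the control mice and 2.51 to 37.3 CPM (median 7.10) at PT 80 ppm, and rose with no overlap. Cyp17a1, a steroid hydroxylase and lyase, rose by 2.38 (SE 0.40, adjusted p = 8.17e-06), and its log2 fold change was 0.64 (adjusted p = 0.377) without block 1.

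In the growth hormone and IGF1 axis, 4 of 25 genes rose and 0 fell, with a median of -0.0018 (3 rose without block 1, with Igfbp2 called and Igfbp1 and Klb not). The 4 genes were Igfbp1, the receptors Prlr and Lepr, and Klb, the co-receptor of FGF21. Prlr, the prolactin receptor, had 69.3 to 134 CPM (median 87.2) in the control mice and 113 to 419 CPM (median 193) at PT 80 ppm, a log2 fold change of 1.28 (SE 0.24, adjusted p = 6.59e-05). Lepr, the leptin receptor, had 1.48 to 2.10 CPM (median 1.84) in the control mice and 1.55 to 163 CPM (median 5.95) at PT 80 ppm. The highest value was that of replicate 1, and the response of Lepr in block 1 exceeded that in blocks 3 and 4 by 4.43 (SE 0.74).

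Several glucocorticoid targets and genes of amino acid breakdown rose. Of 14 glucocorticoid targets and metallothioneins tested, 5 rose and 0 fell, with a median of 0.81, and 3 rose without block 1. Sult1a1, given above among the conjugating enzymes, is also on this list and was called with and without block 1. Fkbp5, a co-chaperone of the glucocorticoid receptor and a sensitive target of it, had 25.1 to 51.5 CPM (median 33.1) in the control mice and 34.1 to 856 CPM (median 125) at PT 80 ppm. The mice of block 1 had 843 and 856 CPM and the other 5 between 34.1 and 225 CPM, and the change of 2.94 (SE 0.38, adjusted p = 2.78e-08) was 1.61 (adjusted p = 0.00166) without block 1. Zbtb16 and Mfsd2a rose by 1.52 and 2.12 on the log2 scale. Without block 1 Zbtb16 had 0.75 (adjusted p = 0.238) and Mfsd2a 1.52 (adjusted p = 0.0499) by edgeR. Of 40 genes of gluconeogenesis and amino acid breakdown, 7 rose, 0 fell and 33 were not called (median 0.59). With no fold limit 22 rose and 2 fell, against 9.75% higher and 8.89% lower of all genes tested. Without block 1 only Mat1a was called and the median was 0.04. Mat1a, which makes S-adenosylmethionine in the liver, had 818 to 1447 CPM (median 1076) in the control mice and 1805 to 10251 CPM (median 2639.8) at PT 80 ppm with no overlap, a log2 fold change of 1.72 (SE 0.19, adjusted p = 1.06e-10), or 1.10 (adjusted p = 3.52e-06) without block 1. Asl, an enzyme of the urea cycle, had 388 to 669.7 CPM (median 555) in the control mice and 631 to 4479 CPM (median 1072) at PT 80 ppm, and rose by 1.44, or by 0.55 without block 1. Cth, which makes cysteine, rose by 1.28, and its log2 fold change was 0.50 (adjusted p = 0.204) without block 1. For Tat and Got1, aminotransferases, and Sdsl the response in block 1 exceeded that in blocks 3 and 4 by 4.72 (SE 0.65), 4.50 (SE 0.54) and 3.22 (SE 0.38). Without block 1 the log2 fold changes of these 3 genes were -0.68 (adjusted p = 0.256), -0.46 (adjusted p = 0.358) and -0.06 (adjusted p = 0.879).

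Of 18 p53 targets and genes of growth arrest, 4 rose and 0 fell (median 0.21), and 1 rose without block 1. Gadd45b, a stress-induced gene, had 1.49 to 4.26 CPM (median 2.07) in the control mice and 1.65 to 174 CPM (median 13.1) at PT 80 ppm, with a log2 fold change of 3.99 (SE 0.50, adjusted p = 7.76e-09), or 2.17 (adjusted p = 0.00202) without block 1. The other 3 genes were not called without block 1. Cdkn1a, the inhibitor of cyclin-dependent kinases p21, had 0.388 to 4.71 CPM (median 1.09) in the control mice and 0 to 26.7 CPM (median 1.08) at PT 80 ppm, with 26.7 CPM in replicate 1 and at most 2.19 CPM in the others. Its log2 fold change of 2.41 (SE 0.70, adjusted p = 0.00915) became -1.26 (adjusted p = 0.188) without block 1. Ddit4, an inhibitor of mTORC1, went from 2.69 (SE 0.60, adjusted p = 7.05e-04) to -0.75 (adjusted p = 0.431), and Trp53inp1 from 1.43 (SE 0.28, adjusted p = 1.18e-04) to 0.24 (adjusted p = 0.601).

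Several clock output genes rose. Of 18 circadian clock genes tested, 6 rose (Per3, Dbp, Tef, Hlf, Bhlhe40 and Noct), 0 fell and 12 were not called (median 0.43), and 5 rose without block 1. Dbp, Tef and Hlf are related transcription factors at the output of the clock. Dbp had 8.16 to 527 CPM (median 32.8) in the control mice and 46.2 to 564 CPM (median 139.6) at PT 80 ppm. The 2 control mice of block 1 had 527 and 407 CPM and the other 5 between 8.16 and 60.3 CPM, and the groups overlapped widely. Its log2 fold change of 2.06 (SE 0.67, adjusted p = 0.0214) was 2.57 (adjusted p = 0.042) without block 1, but in block 1 the PT 80 ppm mice differed from the control mice by -2.09 in log2(CPM + 0.5). Without PT 80 ppm replicate 7 it was 0.98 (adjusted p = 0.293), and without control replicate 4 it was 1.90 (adjusted p = 0.0518). Hlf rose by 1.82 (SE 0.28, adjusted p = 1.31e-06) and Tef by 1.34 (SE 0.41, adjusted p = 0.0145). Bhlhe40, a repressor within the clock, had 96.3 to 225 CPM (median 131) in the control mice and 169 to 458 CPM (median 314) at PT 80 ppm, and Per3 rose by 1.66 (SE 0.48, adjusted p = 0.00915). Without PT 80 ppm replicate 7 the log2 fold changes of Tef, Per3 and Bhlhe40 were 1.02 (adjusted p = 0.0674), 1.10 (adjusted p = 0.0867) and 0.85 (adjusted p = 0.0165). Bhlhe40 was also under the 2-fold limit without PT 80 ppm replicate 5 (0.878) or control replicate 4 (0.95) or 5 (0.97). Rgs16, a regulator of G protein signalling that is not on the list, had 1.27 to 53.2 CPM (median 5.24) in the control mice and 11.9 to 291 CPM (median 56.8) at PT 80 ppm and rose by 3.09 (SE 0.68, adjusted p = 5.88e-04). In the RefSeq promoters of 5 of the 6 genes, the D-box TTATGTAA, to which Dbp, Tef and Hlf bind, occurred in that of Per3 (1.11% of all genes with a promoter) and the E-box CACGTG in that of Tef (8.09%). Both are shown, for the 250 bases before the start in GRCm38.p6, with matches in capitals, as chr4:151044666-151044915 on the - strand for Per3 and chr15:81802423-81802672 on the + strand for Tef.
Per3: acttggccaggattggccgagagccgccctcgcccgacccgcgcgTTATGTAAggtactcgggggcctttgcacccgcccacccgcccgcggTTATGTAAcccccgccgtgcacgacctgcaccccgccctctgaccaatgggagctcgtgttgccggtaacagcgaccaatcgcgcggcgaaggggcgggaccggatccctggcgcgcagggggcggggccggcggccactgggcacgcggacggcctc
Tef: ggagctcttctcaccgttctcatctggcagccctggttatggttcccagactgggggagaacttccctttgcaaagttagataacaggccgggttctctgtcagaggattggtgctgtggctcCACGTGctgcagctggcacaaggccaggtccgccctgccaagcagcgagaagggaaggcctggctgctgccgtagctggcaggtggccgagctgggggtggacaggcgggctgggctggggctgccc
The matches describe these letters alone. They are a few out of many searches, since other motifs and the DEGs of other lists were searched too. The PPAR direct repeat was in 0 of 5 DEGs with a promoter of the fatty acid oxidation and PPARA list. The STAT motif was in 0 of 4 such DEGs of the growth hormone and IGF1 axis. It was in 1 of 12 male-biased and 0 of 9 female-biased DEGs with a promoter. Whether any motif was more frequent than in all promoters was not tested.

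Some genes of cell division fell. Of 26 cell cycle and replication genes tested, 8 fell, 2 rose and 16 were not called (median -0.49), and without block 1 Top2a and Cdc20 fell and Cdc25a rose. Mcm2, a subunit of the replicative helicase, had 3.29 to 6.25 CPM (median 4.85) in the control mice and 1.55 to 2.37 CPM (median 2.18) at PT 80 ppm with no overlap, and fell by 1.21, or by 0.97 without block 1, under the 2-fold limit. Top2a, the topoisomerase of dividing cells, had 2.02 to 4.72 CPM (median 2.75) in the control mice and 0.0815 to 1.24 CPM (median 0.817) at PT 80 ppm and fell by 2.15, also with no overlap. Its lowest PT 80 ppm value was under the floor of 3 counts. Cdc20, Prc1 and Kif20a fell by 2.65, 2.16 and 1.02, and Mcm2 and Kif20a were among the 3 genes with the smallest spread among PT 80 ppm mice of all genes that fell. Prc1 and Kif20a had -1.40 (adjusted p = 0.103) and -0.84 (adjusted p = 0.0516) without block 1. Kif20a was also under the 2-fold limit without PT 80 ppm replicate 3, 5 or 7 or control replicate 1, 2 or 6, at -0.933 to -0.995. The 2 genes that rose, Rrm2 and Tk1, make deoxynucleotides, and Tk1 overlaps the DEG Afmid on the opposite strand. Rrm2 went from 1.48 (SE 0.33, adjusted p = 5.55e-04) to 0.14 (adjusted p = 0.832) and Tk1 from 1.75 (SE 0.35, adjusted p = 1.85e-04) to 1.11 (adjusted p = 0.062) without block 1.

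Markers of blood cells were lower as well. Of 6 red cell and erythroid markers tested, 5 fell (4 without block 1), and the summed level of the 9 markers measured was 48.2 to 201 CPM in the control mice and 14.2 to 73.2 CPM at PT 80 ppm. Hbb-bs, a beta-globin, had 4.42 to 60.2 CPM (median 11.8) in the control mice and 2.36 to 11.3 CPM (median 6.65) at PT 80 ppm, and Hba-a1 and Hba-a2, whose transcripts are nearly identical, fell by 1.17 and 1.25. Control replicate 4 had the highest level of all 3 globins, with 60.2, 53.7 and 52.6 CPM, and without this mouse none of the 3 was a DEG in the edgeR test. Their log2 fold changes were then -0.945 (adjusted p = 0.053) for Hbb-bs, -0.837 (adjusted p = 0.0362) for Hba-a1 and -0.935 (adjusted p = 0.0239) for Hba-a2. Alas2, the erythroid enzyme of haem synthesis, fell by 1.38 and had -1.04 (adjusted p = 0.0963) without block 1. Of 9 neutrophil, monocyte and lymphocyte markers, 2 fell with and without block 1 (Ighm and Cd4), with a summed level over the 27 markers measured of 44.97 to 84.8 CPM in the control mice and 13.6 to 55.6 CPM at PT 80 ppm. Ighm, the heavy chain of IgM, had 3.07 to 22.8 CPM (median 7.66) in the control mice and 0.661 to 2.97 CPM (median 1.42) at PT 80 ppm. Of 12 Kupffer cell markers 0 were called, and the median was -0.61. With no fold limit 4 fell and 1 rose, against 8.89% lower and 9.75% higher of all genes tested. Of the 14 endothelial markers and the 12 stellate cell and fibroblast markers 0 were called, and by adjusted p alone in the edgeR test 1 endothelial marker was higher, 2 stellate cell markers higher and 1 lower. Spp1, a marker of cholangiocytes, fell by 1.11 with no overlap, and its log2 fold change was -0.77 (adjusted p = 0.0984) without block 1. In whole liver, fewer cells of a type cannot be told apart from less RNA per cell, and the part of blood cells in the lower levels of cell cycle and interferon genes was not tested.

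The remaining lists with a DEG held 1 to 3 each, against 1.63% higher and 1.67% lower of all genes tested. Of 31 carboxylesterases and other hydrolases that bind organophosphates, 3 fell and 0 rose (median -0.04; 2 without block 1). Ces2e had 264 to 582 CPM (median 345) in the control mice and 30.01 to 316 CPM (median 178) at PT 80 ppm and fell by 1.14, or by 0.81 without block 1. Ces4a and the pseudogene Ces2d-ps, whose reads may belong to other carboxylesterases, fell with no overlap by 2.17 and 2.66. Of 25 NRF2 targets 2 rose, Nqo1 and Cbr1, by 1.13 and 1.25, and 0 rose by 2-fold without block 1. Of 34 genes of the unfolded protein and heat shock response 1 rose, Trib3, by 1.16, and 0 were called without block 1, where Trib3 had 1.36 (adjusted p = 0.0794). Trib3 was also not a DEG without PT 80 ppm replicate 3 or 6 or control replicate 2 or 4. Of 20 genes of haem metabolism 1 rose, Tfrc, by 1.12, and 1 fell, the erythroid gene Alas2, and 0 were called without block 1, where Tfrc had 0.46 (adjusted p = 0.307). Among the 10 calpains, Capn8 and Capn3 fell, by 2.30 and 1.00, and without block 1 only Capn8 was called, while Capn3 had -0.81 (adjusted p = 0.252). Capn3 was also not a DEG without PT 80 ppm replicate 1, 2, 3, 5 or 6 or control replicate 2, 4 or 7. None of 13 immediate early genes was called by the edgeR test, and 2 (Dusp6 and Ier2) had an adjusted p under 0.05 with less than 2-fold change. Of 15 markers of pancreas, fat, gut and muscle in the count table, 2 passed the filter on low counts, the pancreatic Cela1 and the muscle actin Acta1, and their edgeR log2 fold changes were -0.30 (adjusted p = 0.655) and 0.19 (adjusted p = 0.706).

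**Figure D4:**
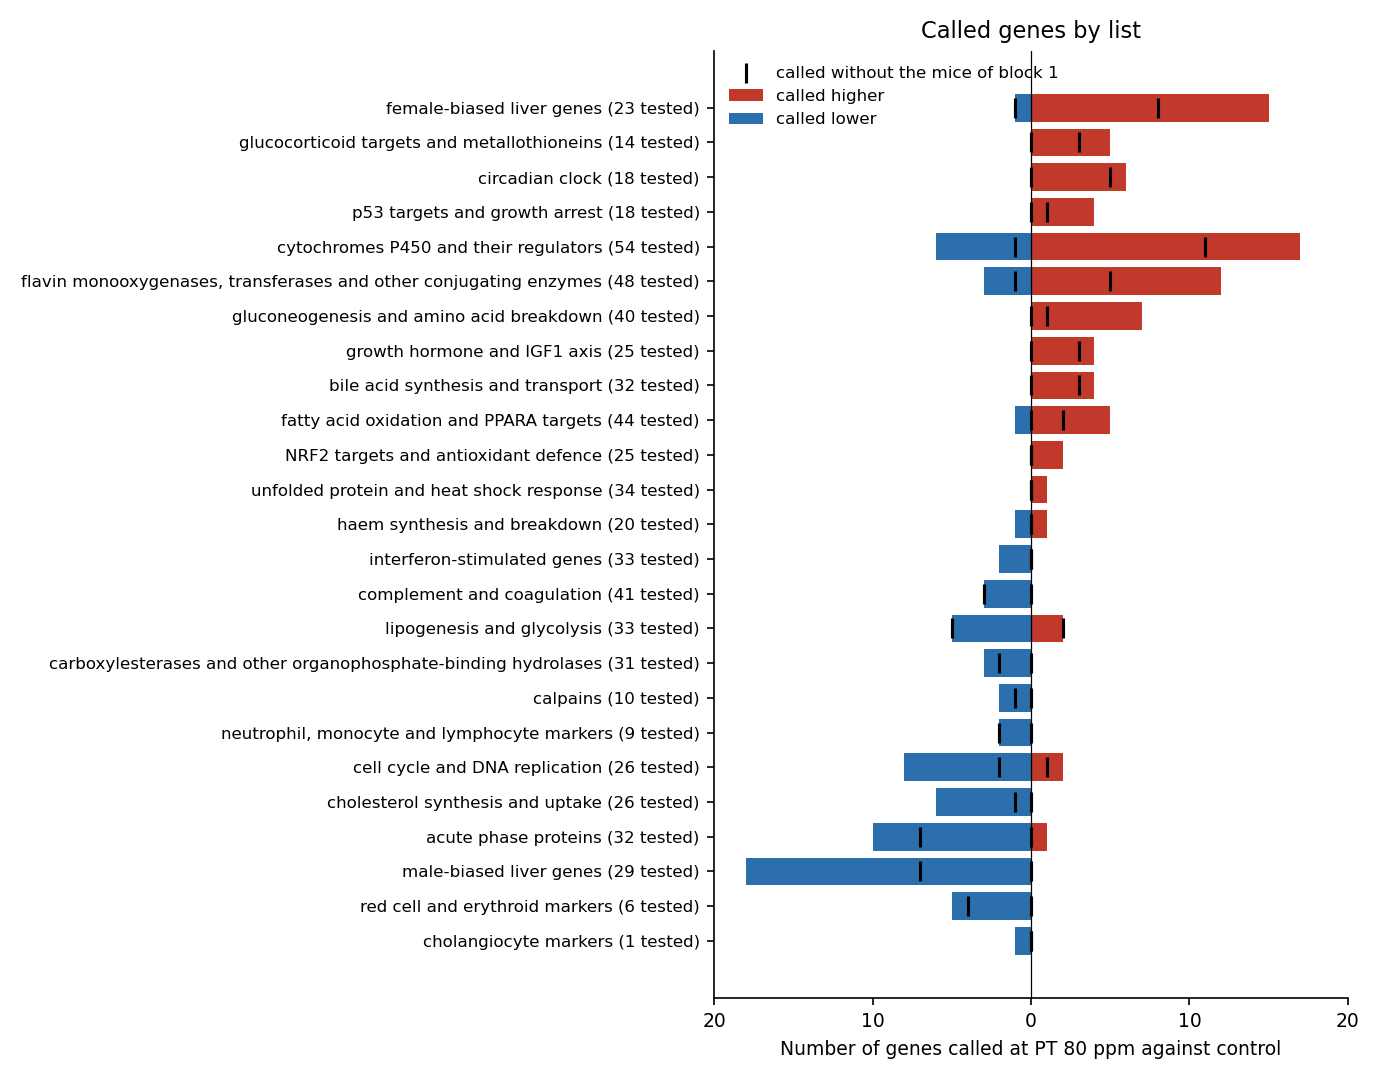
Bars give the number of genes of each list called higher (red, to the right) or lower (blue, to the left) at PT 80 ppm, with the number tested beside the name, for the 25 lists with a DEG, and ticks give the number called without the mice of block 1. The male-biased (18 lower) and female-biased genes (15 higher) and the cytochromes P450 (17 higher) have the longest bars, and the ticks lie at the end of the bars for lipogenesis and complement.

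Of the 344 DEGs, 201 were on none of the lists. The gene with the smallest p among those that fell was Tomm40l, with 30.7 to 43.8 CPM (median 38.6) in the control mice and 10.7 to 24.1 CPM (median 17.5) at PT 80 ppm and no overlap. It lies next to and overlaps Nr1i3 on the opposite strand, and its log2 fold change was -1.03 (SE 0.11, adjusted p = 5.44e-11). Tfpi2, a protease inhibitor, had 102 to 209 CPM (median 163) in the control mice and 28.5 to 109 CPM (median 89.4) at PT 80 ppm and fell by 1.06. Without block 1 Tomm40l and Tfpi2 had -0.92 (adjusted p = 1.93e-07) and -0.87 (adjusted p = 2.61e-06), under the 2-fold limit. Fabp5, a fatty acid binding protein, had 28.99 to 105 CPM (median 42.6) in the control mice and 2.82 to 23.4 CPM (median 5.54) at PT 80 ppm, and fell with no overlap by 2.83. Gm6166, annotated as a processed pseudogene, so that its reads may belong to another gene, had 540.0 to 1088 CPM (median 1005) in the control mice and 35.3 to 305 CPM (median 109.6) at PT 80 ppm, and fell with no overlap by 2.62. Cxcl14, a chemokine, had 13.4 to 268 CPM (median 85.9) in the control mice and 2.04 to 30.1 CPM (median 8.71) at PT 80 ppm, a log2 fold change of -3.03 (SE 0.79, adjusted p = 0.00391). It was not a DEG by edgeR when the control mice were fitted with the PT 80 ppm mice alone or with all PT mice alone (highest adjusted p = 0.142). Afmid, an enzyme of tryptophan breakdown, was among the genes with the smallest spread, with 169 to 359.7 CPM (median 231) in the control mice and 415 to 784 CPM (median 551) at PT 80 ppm. The change of Afmid was 1.05 (SE 0.16, adjusted p = 1.58e-06), or 0.81 (adjusted p = 0.00816) without block 1, under the 2-fold limit. Slc22a28, an organic anion transporter gene, was among those with the largest spread, with 57.1 to 89.2 CPM (median 69.9) in the control mice and 0.897 to 71.2 CPM (median 7.46) at PT 80 ppm, and was not called without block 1.

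At the lower PT doses almost no gene passed both limits against control. The PT 80 ppm mice were also compared with the 7 mice at PT 40 ppm, and in this comparison, which has the same PT 80 ppm mice, 229 genes were DEGs (2.2% of 10415; 126 higher, 103 lower). Of these, 184 were also DEGs against control, all in the same direction, or 53.5% of the DEGs against control and 80.3% of those against PT 40 ppm. With the control as reference, which all 3 PT doses share, 0 genes were DEGs at PT 40 ppm and 1 (0.0096%) at PT 20 ppm by edgeR. At PT 40 ppm 886 genes had an unadjusted p under 0.05 by edgeR, and DESeq2 and limma-voom also gave 0 DEGs. The 170 higher genes had a median log2 fold change of 0.32 at PT 40 ppm and 0.10 at PT 20 ppm, and the 174 lower genes -0.38 and -0.07. At 100 ppm of methidathion (MT), another OPP, 5 genes were DEGs (0.048%) against the same control mice, and the medians were 0.25 and -0.34. Cyp4a10 had a median of 1.01 CPM in the control mice, 1.79 at PT 20 ppm, 3.37 at PT 40 ppm and 216 at PT 80 ppm. The difference between PT 80 and 40 ppm was 5.92 (SE 0.64, adjusted p = 6.96e-10) on the log2 scale. Slco1a4 went from 6.75 to 13.3, 18.04 and 65.7 CPM, and Cyp2c54 from 236 to 308, 417 and 958 CPM. For Fkbp5 the medians were 33.1, 37.9 and 37.1 CPM up to PT 40 ppm and 125 CPM at PT 80 ppm. Rgs16 and Cxcl14 differed from this pattern, since their medians at PT 40 ppm, of 61.3 and 10.8 CPM, were close to those at PT 80 ppm, 56.8 and 8.71 CPM. Their differences between PT 80 and 40 ppm were 0.90 (SE 0.61, adjusted p = 0.33) and -1.08 (SE 0.73, adjusted p = 0.326). Saa1 had medians of 15215, 6202, 793 and 89.1 CPM with rising dose, but the highest mouse at PT 40 ppm had 42717 CPM. By edgeR its log2 fold change against control was 0.57 (SE 1.19, adjusted p = 0.981) at PT 20 ppm. At PT 40 ppm it was -0.57 (SE 1.16, adjusted p = 0.909), so no fall was shown at these 2 doses.

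**Figure D5:**
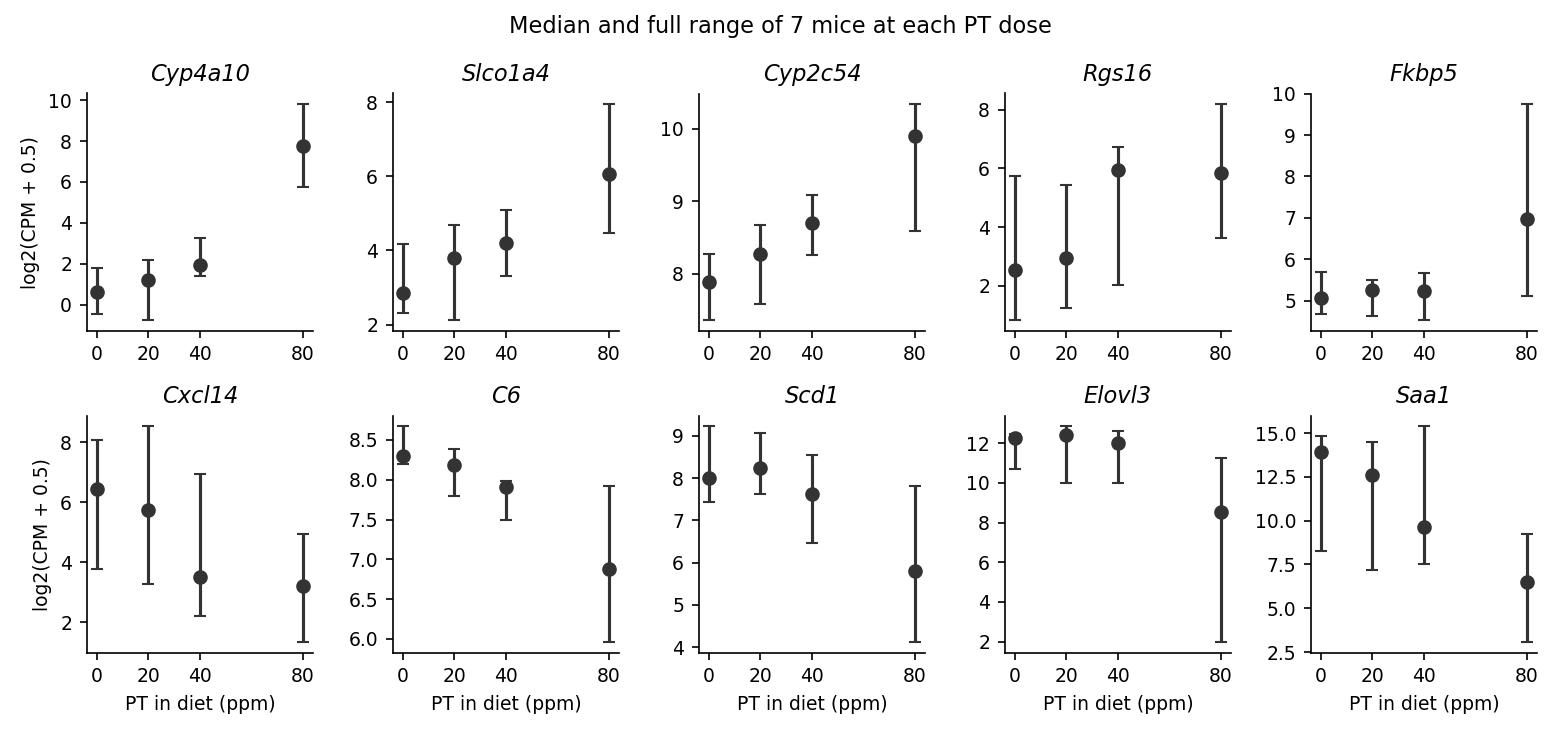
Each panel gives 1 gene, with the PT dose in ppm on the x axis and log2(CPM + 0.5) on the y axis; points are medians and bars the full range of 7 mice. The medians of Fkbp5 and Elovl3 at PT 20 and 40 ppm lie within the range of the control mice, whereas the medians of Rgs16 and Cxcl14 at PT 40 ppm are close to those at PT 80 ppm.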

How the data were processed

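Estimated counts per gene, deposited by the authors without normalization, were used for all 84 mice. The authors aligned trimmed TempO-Seq reads with STAR to mm39 and quantified Ensembl transcripts with the Partek E/M method; a read may be shared among genes, and 18.7% of counts were not whole. The authors' log2 values adjusted for block and isolator were not used. Gene names came from a GENCODE annotation of the same assembly, another release (17660 of 17695 identifiers).

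Counts were rounded and fitted with edgeR 4.0.16 (TMM, quasi-likelihood test) in R 4.3.3, in 1 model of 12 groups that also held block and isolator, on 10415 genes whose median count exceeded 8. A DEG had a Benjamini-Hochberg adjusted p under 0.05 and at least 2-fold change. SEs came from the F statistic. CPM used TMM factors, and a pseudocount of 0.5 on the log2 scale. Levels were not compared between genes, whose oligos may bind unequally. On simulated data for this comparison, over 10415 genes, 57 of 100 genes changed 2-fold and 98 of 100 changed 4-fold were called, with 0 false calls. By adjusted p alone 87 and 98 were found, with 4 false. The simulated mice had the same spread in every group and no effect of block, isolator or cage. The simulation therefore cannot show how often a change in 1 or 2 mice is called.

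The 31 lists and the members were chosen with earlier results of these data known. Named genes were, among DEGs, the 5 with the smallest p per direction, the 10 highest and 10 lowest fold changes among well-counted genes, the 5 with the highest mean CPM, the 3 with the largest and the 3 with the smallest SD per direction, and up to 4 DEGs per list, or 2 other members where there was none. Nr1i3, Lpin1, Tat, Got1, Hmgcs1, Tef, Cyp3a11, Cyp17a1, Pfkfb3, Cebpd, Rrm2, Tk1 and Plin2, and the single list members Sqle, Noct, Ugt1a9, Cyp4a32, Cyp2c40, Cyp2e1, Insig2, Prg4, Igfbp2 and Cdc25a, were named after their values were seen. Some genes that the rule chose are not reported here. Alternatives were DESeq2 1.42.0, limma-voom 3.58.1, other scalings, filters, covariates and limits, subsets of mice, and each of the 14 mice left out. Counts carry no molecular identifiers, so the floor of 3 counts covers counting error only.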

Additional observations from a re-analysis of the deposited data

Results flagged for a closer look

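Each named gene was searched, within the 7 control and the 7 PT 80 ppm mice, for a mouse set apart from the others on the log2 scale, by Dixon's ratio of its gap to the nearest mouse over the range of the group. Of 238 groups tested 15 passed the limit for 7 mice, which is near the share of about 1 in 20 that chance alone gives. Some named genes were chosen for a large spread among the PT 80 ppm mice, which favours such flags. PT 80 ppm replicate 1, of block 1, accounted for 9 of the 15. It was the highest mouse for Igfbp1 (ratio 0.677; 721 CPM against 7.77 to 34.6 CPM in the others), Sdsl (0.632; 186 against 9.16 to 28.2 CPM), Lepr (0.635; 163 against 1.55 to 9.64 CPM) and Cdkn1a (0.579; 26.7 against 0 to 2.19 CPM). It was the lowest for Cd5l (0.720; 5.95 against 36.2 to 71.6 CPM), Cyp2c54 (0.690; 385 against 889 to 1296 CPM), Spp1 (0.648; 10.1 against 29.5 to 52.1 CPM), C8a (0.604; 21.1 against 135 to 450.5 CPM) and Cyp2d40 (0.592; 3.10 against 9.62 to 20.1 CPM). Thus the mouse was lowest both for genes that fell and for Cyp2c54, which rose.

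The other 6 were control mice. Control replicate 1 was lowest for C9 (0.794; 2333 against 6401 to 8319 CPM) and highest for Cyp2c39 (0.627; 18.8 against 2.88 to 5.97 CPM) and Cbr1 (0.56804; 44.2 against 25.8 to 32.6 CPM). Control replicate 6 was highest for Plin4 (0.614; 2.83 against 0.588 to 1.18 CPM) and lowest for Ecm1 (0.604; 60.1 against 73.1 to 83.2 CPM). Control replicate 5 was highest for Psmb9 (0.647; 20.9 against 13.04 to 15.4 CPM).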

How the results depend on the processing

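No paired analysis was possible because the labels give no replicate numbers; those used here follow accession order. DESeq2 gave 347 DEGs at PT 80 ppm against control, limma-voom 343 (33.2% higher instead of 49.4%), and 338 and 273 of these were among the 344. Against PT 40 ppm, limma-voom called 176 genes lower instead of 103. With no filter on low counts the DEGs against control numbered 566 (337 higher) and against PT 40 ppm 350 (238 higher). With a median count above 50 they were 180 (91 higher, 89 lower) and 118 (61 higher, 57 lower). With no fold limit they were 1941 (1015 higher, 926 lower) and 1623 (857 higher, 766 lower). Fitting the control and PT 80 ppm mice alone left 137 DEGs (61 higher, 76 lower). This fit holds fewer mice and takes the spread from them alone, and 126 of its DEGs were among the 344. The spread pooled over all groups can be smaller than that among the PT 80 ppm mice. For Elovl3 the SD of log2 CPM was 3.49 at PT 80 ppm and 0.74 in the control mice. In the fit of these 2 groups Elovl3, Lepr and Moxd1 had edgeR adjusted p of 0.095, 0.119 and 0.0676. Of 107 named DEGs, 54 were still called in it and 53 were not. Without block 1 there were 173 (88 higher, 85 lower) against control and 93 (57 higher, 36 lower) against PT 40 ppm. Leaving out each mouse in turn gave 243 to 401 DEGs against control, with 108 to 195 higher and 135 to 206 lower. The lowest counts came without PT 80 ppm replicate 1. Of 107 named DEGs, 39 were called in every fit and 68 were lost in 1 or more. The causes of these changes were not tested beyond the numbers of genes and mice.

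The direction of some log2 fold changes reversed. Cdkn1a had -0.81 by limma-voom, and -0.47 (without PT 80 ppm replicate 1) to 2.77 with a mouse left out. Acta1, not a DEG, had -0.074 without the isolator term, -0.0034 without block and isolator, and -0.081 (without PT 80 ppm replicate 1) to 0.41 with a mouse left out, being also negative without control replicate 1 (-0.038). Without block 1 the values were -0.75 for Ddit4, -0.061 for Sdsl, -1.26 for Cdkn1a, -0.68 for Tat, -0.46 for Got1, -0.085 for Cebpd and, among genes that were not DEGs, 0.11 for Col3a1, 0.097 for Cela1 and -0.30 for Acta1. Differences of means within single blocks, with no test, also reversed. In block 1 these were Dbp at -2.09 and Trib3 at -0.097. In block 3 they were Sult1e1 at -0.29, Ddit4 at -0.64, Cdkn1a at -0.95, Tat at -0.37 and Cebpd at -0.024. In block 4 they were Igfbp1 at -0.35, Sult1e1 at -0.95, Ddit4 at -0.63, Plin4 at -0.22, Cth at -0.63, Sdsl at -0.56, Nqo1 at -0.37, Trp53inp1 at -0.36, Cdkn1a at -1.36, Noct at -0.011, Klb at -0.17, Tfrc at -0.16, Hbb-bs at 0.60, Tat at -1.08, Got1 at -1.37, Hmgcs1 at 0.15, Cyp17a1 at -0.23, Cebpd at -0.077 and Rrm2 at -0.34. For 167 of the 344 DEGs a median count of at most 50 limits the precision.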
